A study of Mus musculus with 10 samples.

Results

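The genes described here encode the enzymes that write and remove DNA methylation in mouse embryonic stem cells (mESCs), together with the cofactors that they need. They were chosen by name as known DNA methyltransferases (Dnmt1, Dnmt3a, Dnmt3b), their cofactors (Uhrf1, Dnmt3l), ten-eleven translocation (TET) dioxygenases (Tet1, Tet2, Tet3) and the repair glycosylase Tdg, 9 genes of the 20325 in the table. RNA-Seq was performed on polyA RNA from 5 mESC lines with 2 biological replicates each, in a study of how the histone chaperone DAXX and the histone variant H3.3 act on transcription. The libraries held 15463625 to 21396585 expected counts, and all 9 genes are among the 13201 that passed the filter on low counts. Replicates are called biological, but no source says which cultures they came from, so p-values measure only the spread between these libraries.

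The Daxx-/- line (strain 129/SvEv) lacks DAXX, and its rescued counterpart carries a lentiviral FLAG-tagged WT mouse DAXX transgene. The H3.3 KO line (mixed strain 129 x C57BL/6J) is labelled as lacking H3.3, and lentiviral FLAG-HA-tagged H3.3 was put back either as WT or as a mutant made to bind DAXX without entering nucleosomes. The labels spell this mutant L126A-L130A. Transgenes were driven by an EF1 promoter under puromycin selection, so their expression does not follow that of the native genes, and the KO lines carried no transgene that the labels name. All lines were grown without feeders on gelatin in 2i medium with LIF, which holds CHIR99021 at 3 µM and PD0325901 at 1 µM. Each KO line has a single origin, so genotype, strain and derivation cannot be told apart between the Daxx-/- and H3.3 KO families.

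DNA methylation in mammals is placed on cytosines of CpG sites. DNMT3A and DNMT3B set it anew, helped in germ cells and early embryos by the catalytically inactive DNMT3L, while DNMT1, brought to newly replicated DNA by UHRF1, copies it onto the daughter strand. TET enzymes oxidize methylcytosine and TDG excises oxidized products, and mESCs in 2i medium are known for low methylation and little de novo enzyme.

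The targeted genes were examined first. H3f3a, which encodes H3.3, was at 491 and 381 CPM (counts relative to library size, scaled by median-of-ratios factors, with replicates 1 and 2 in this order throughout) in Daxx-/-, and at 485 and 494 CPM in DAXX-rescued mESCs. In H3.3 KO it was at 5.19 and 10.9 CPM. WT H3.3-rescued mESCs had 3.62 and 4.38 CPM, and mutant H3.3-rescued mESCs 5.25 and 2.84 CPM. H3f3a counts thus match a loss of native H3f3a in the H3.3 family. H3f3b, the other H3.3 gene, was at 509 and 719.5 CPM in H3.3 KO, 204 and 139 CPM in WT H3.3-rescued, and 386 and 323.5 CPM in mutant H3.3-rescued mESCs. It had 313 and 379.7 CPM in Daxx-/- and 116 and 84.3 CPM in DAXX-rescued mESCs, so its highest pair was that of H3.3 KO. H3f3b counts thus give the H3.3 KO label no support. A count per gene does not tell an intact transcript from that of a targeted allele. H3f3a and H3f3b had lower means in each rescued H3.3 line than in H3.3 KO, so their counts show no sign of the H3.3 transgenes. Daxx was at 82.5 and 72.8 CPM in Daxx-/- and 206 CPM in both libraries of DAXX-rescued mESCs. In H3.3 KO, WT and mutant H3.3-rescued mESCs, Daxx was at 61.9 and 61.4, 62.3 and 59.3, and 101 and 67.45 CPM, so its level in Daxx-/- was above that of H3.3 KO and WT H3.3-rescued and within that of mutant H3.3-rescued mESCs, and Daxx counts check only the presence of the transgene.

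Per kilobase (kb) of exon, the maintenance pair stood highest. Averaged over the 10 libraries, Uhrf1 was at 202 CPM per kb and Dnmt1 at 58.9 CPM per kb. Tdg (34.9), Tet1 (29.9), Dnmt3l (27.7), Tet2 (23.6) and Dnmt3b (22.2 CPM per kb) formed a middle group, with Dnmt3a at 6.91 and Tet3 lowest at 0.966 CPM per kb. In the plot of levels per exon length the lines of the middle group overlap. Line means of Uhrf1 and Dnmt1 lie above it and those of Dnmt3a and Tet3 below it in every line, although Dnmt3l in DAXX-rescued mESCs averaged 47.5 CPM per kb, with replicates 1.91-fold apart, beside 48.0 CPM per kb for Dnmt1.

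**Figure D1:**
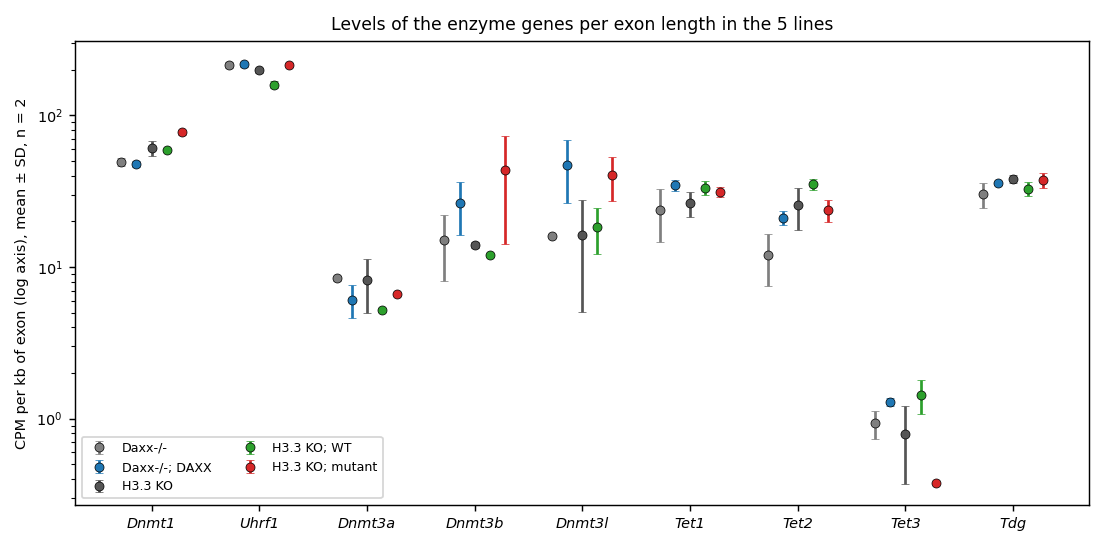
Level of each gene in CPM per kb of exon (log axis), as mean ± SD of 2 libraries in each of the 5 lines. The KO lines are Daxx-/- and H3.3 KO, and the label after a semicolon names the transgene. Uhrf1 averages 202 CPM per kb and Tet3 0.966 CPM per kb.

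Genes also differed in how far they moved across libraries. The highest library exceeded the lowest by 1.45-fold for Uhrf1, 1.54-fold for Tdg and 1.71-fold for Dnmt1, which are the steadiest of the 9. Their range of log2(CPM + 1) lies at the 7.51, 12.5 and 23.8 percentiles among all genes tested. Dnmt3l (7.42-fold) and Dnmt3b (6.36-fold) spread furthest, at the 95.8 and 94.7 percentiles of that range, followed by Tet3 (4.54-fold) and Tet2 (4.19-fold) at the 86.3 and 88.2 percentiles. For Dnmt1 and Uhrf1 the SD between line means, 0.27 and 0.19 on the log2 scale, was larger than the SD within lines, 0.09 and 0.06. For Dnmt3b and Dnmt3l the SD within lines, 0.61 and 0.63, came close to that between line means, 0.70 and 0.76. For Dnmt3a, Tet1 and Tdg the SD within lines was the larger of the pair. The plot of each gene by library shows these spreads.

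**Figure D2:**
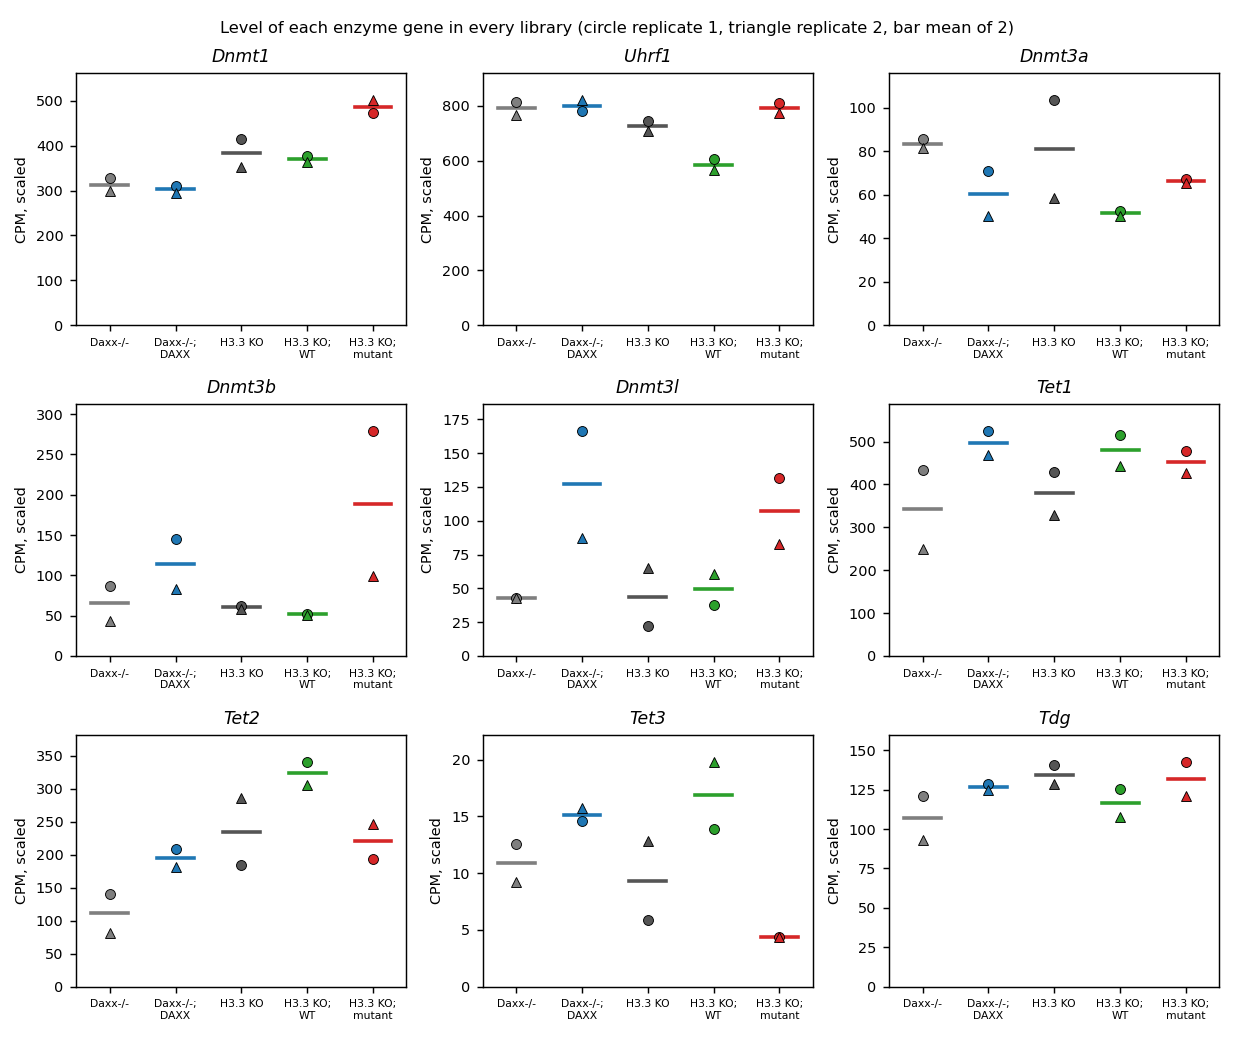
Scaled CPM of each gene (y axis from 0) in every library of the 5 lines (x axis), with a circle for replicate 1, a triangle for replicate 2 and a bar for their mean. Dnmt1 and Uhrf1 replicates lie close together, while Dnmt3b in mutant H3.3-rescued mESCs is split between 279 and 98.7 CPM.

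Dnmt1, the maintenance methyltransferase (chr9:20907209-20959888 on the minus strand, GRCm38), was lowest in the Daxx family. It was at 327 and 299 CPM in Daxx-/-, 311 and 294 in DAXX-rescued, 414 and 352 in H3.3 KO, 378 and 365 in WT H3.3-rescued, and 473 and 501 in mutant H3.3-rescued mESCs. All 6 libraries of the H3.3 family lay above all 4 of the Daxx family, and within the H3.3 family both mutant libraries lay above the other 4. Between families Dnmt1 rose by 0.42 ± 0.08 on the log2 scale (SE; 1.33-fold, edgeR adjusted p = 0.00462) in H3.3 lines, a difference under the 2-fold threshold. Mutant H3.3-rescued mESCs had a log2 difference of 0.35 ± 0.13 from H3.3 KO (edgeR adjusted p = 0.22) and 0.39 ± 0.13 from WT H3.3-rescued mESCs (edgeR adjusted p = 0.249). Neither passed the test. As these are bulk libraries, fewer cells that express a gene and less RNA per cell cannot be told apart, for Dnmt1 and for every gene that follows.

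Uhrf1, which recognizes hemimethylated CpG sites (chr17:56303321-56323486, plus strand), was at 815 and 768 CPM in Daxx-/-, 779 and 820.3 in DAXX-rescued, 745 and 708 in H3.3 KO, 606 and 566 in WT H3.3-rescued, and 811 and 774 in mutant H3.3-rescued mESCs. WT H3.3-rescued mESCs held the lowest pair, apart from all other libraries, and the Daxx-/-, DAXX-rescued and mutant pairs overlapped. The log2 difference between WT H3.3-rescued and H3.3 KO mESCs was -0.31 ± 0.12 (edgeR adjusted p = 0.293). Mutant exceeded WT H3.3-rescued mESCs by 0.44 ± 0.12 on the log2 scale (edgeR adjusted p = 0.148), which DESeq2 called (adjusted p = 0.00766). In the edgeR fits that each left out 1 library, that adjusted p was between 0.099 and 0.84. Over the 10 libraries, which share lines, Uhrf1 and Dnmt1 had a Pearson correlation of r = -0.07.

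Dnmt3a, a de novo methyltransferase (chr12:3806007-3914443, plus strand), was at 85.6 and 81.4 CPM in Daxx-/-, 70.7 and 50.3 in DAXX-rescued, 103 and 58.3 in H3.3 KO, 52.5 and 50.3 in WT H3.3-rescued, and 67.0 and 65.2 in mutant H3.3-rescued mESCs. Both rescued lines with a WT transgene lay below their KO line, with the H3.3 KO libraries far apart from each other. The log2 difference was -0.65 ± 0.26 between WT H3.3-rescued and H3.3 KO mESCs (edgeR adjusted p = 0.317), and -0.47 ± 0.25 between DAXX-rescued and Daxx-/- mESCs (edgeR adjusted p = 0.315). Leaving out replicate 1 of H3.3 KO brought the first of these to -0.18 and leaving out replicate 2 to -1.01, and the other lay between -0.73 and -0.24 in such fits. Dnmt3a shares 133 exon bases with Dnmt3aos on the opposite strand, and the libraries carry no strand, so reads from this stretch cannot be assigned to either.

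Dnmt3b, the second de novo methyltransferase (chr2:153649450-153687730, plus strand), gave 86.4 and 43.9 CPM in Daxx-/-, 144.5 and 83.1 in DAXX-rescued, 62.3 and 58.8 in H3.3 KO, 52.4 and 51.0 in WT H3.3-rescued, and 279 and 98.7 in mutant H3.3-rescued mESCs. Both mutant libraries lay above all 4 others of the H3.3 family, replicate 1 by far the more. Against H3.3 KO the log2 difference was 1.64 ± 0.48 (3.12-fold, edgeR adjusted p = 0.136), and against WT H3.3-rescued mESCs 1.87 ± 0.48 (3.65-fold, edgeR adjusted p = 0.143). DESeq2 called both (adjusted p = 0.00752 and 0.00201). Without replicate 1 of the mutant line the log2 differences were 0.71 and 0.93 (edgeR adjusted p = 0.604 and 0.713), and without replicate 2 they were 2.21 and 2.43, both then called (edgeR adjusted p = 0.0435 and 0.0465). In DAXX-rescued against Daxx-/- mESCs the libraries overlapped, with a log2 difference of 0.81 ± 0.47 (edgeR adjusted p = 0.345), between 0.35 and 1.37 with single libraries left out. The close copy Dnmt3c was not used here, so reads shared with it cannot be told apart from Dnmt3b.

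Dnmt3l, the cofactor of the de novo enzymes (chr10:78041947-78063622, plus strand), was at 42.8 and 42.7 CPM in Daxx-/-, 166.5 and 87.2 in DAXX-rescued, 22.4 and 65.0 in H3.3 KO, 37.5 and 60.8 in WT H3.3-rescued, and 132 and 82.9 in mutant H3.3-rescued mESCs. DAXX-rescued and mutant H3.3-rescued mESCs were the high lines, and all 4 of their libraries lay above the other 6. The DAXX-rescued line exceeded Daxx-/- by 1.57 ± 0.49 on the log2 scale (2.97-fold, edgeR adjusted p = 0.123), and DESeq2 called this change (adjusted p = 0.0132). The edgeR value was 1.03 without DAXX-rescued replicate 1 and 1.96 without its replicate 2, and neither was called. Mutant H3.3 exceeded H3.3 KO by 2.46-fold (edgeR adjusted p = 0.228) and WT H3.3-rescued mESCs by 2.18-fold (edgeR adjusted p = 0.396). On the log2 scale the first of these was 1.30, and it was 0.72 without H3.3 KO replicate 1 and 2.26 without its replicate 2. With WT H3.3 the log2 difference from H3.3 KO was 0.17 ± 0.49, and it was -0.40 without H3.3 KO replicate 1 and 1.13 without its replicate 2. The difference between the WT H3.3 and DAXX effects, tested as an interaction, was -1.40 ± 0.69 (edgeR adjusted p = 0.402). Dnmt3l shares 67 exon bases with Aire on the opposite strand, which was at 1.24 to 10.1 CPM.

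Relative to exon length, which is taken from another annotation than the authors', Dnmt3b was the more abundant de novo methyltransferase. By CPM alone Dnmt3a was the higher in Daxx-/- replicate 2, H3.3 KO replicate 1 and, barely, WT H3.3-rescued replicate 1. Per exon length, Dnmt3b made up 69.8% and 55.3% of Dnmt3a plus Dnmt3b in Daxx-/- and 82.4% and 79.1% in DAXX-rescued mESCs. It made up 58.0% and 69.8% in H3.3 KO, 69.6% and 69.9% in WT H3.3-rescued, and 90.5% and 77.6% in mutant H3.3-rescued mESCs. The mutant and DAXX-rescued libraries held the 4 highest shares in the series, and Dnmt3b exceeded Dnmt3a per length in every library. Of all pairs among the 9 genes, Dnmt3b and Dnmt3l had the highest correlation (r = 0.73 over 10 libraries, which share lines and a replicate number). Dnmt1 and Tet3 had the most negative (r = -0.77).

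Promoter sequences are shown for Dnmt3b and Dnmt3l, the pair with the highest correlation, and for Tet3, which had the lowest values in the mutant line. All 9 genes matched the RefSeq table of promoters (GRCm38.p6), each 300 bases long and read in the direction of the gene. Capitals mark GGGCGG, the core of a GC box, on either strand, and the Dnmt3l gene has 3 annotated starts, of which the first and second are printed. Counts per gene do not tell which start was used.
Dnmt3b chr2:153649199-153649498, plus strand: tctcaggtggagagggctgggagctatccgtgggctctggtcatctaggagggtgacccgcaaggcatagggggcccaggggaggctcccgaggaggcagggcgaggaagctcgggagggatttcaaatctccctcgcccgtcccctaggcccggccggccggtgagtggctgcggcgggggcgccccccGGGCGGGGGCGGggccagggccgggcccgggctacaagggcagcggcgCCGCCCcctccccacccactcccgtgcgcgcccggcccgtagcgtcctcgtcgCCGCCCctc
Dnmt3l first start chr10:78042037-78042336, plus strand: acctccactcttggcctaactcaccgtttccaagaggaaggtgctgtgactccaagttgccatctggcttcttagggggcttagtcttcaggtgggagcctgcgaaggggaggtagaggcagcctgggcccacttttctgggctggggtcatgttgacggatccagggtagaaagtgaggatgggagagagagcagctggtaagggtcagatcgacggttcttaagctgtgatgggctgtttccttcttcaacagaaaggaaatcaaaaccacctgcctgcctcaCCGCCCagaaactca
Dnmt3l second start chr10:78049592-78049891, plus strand: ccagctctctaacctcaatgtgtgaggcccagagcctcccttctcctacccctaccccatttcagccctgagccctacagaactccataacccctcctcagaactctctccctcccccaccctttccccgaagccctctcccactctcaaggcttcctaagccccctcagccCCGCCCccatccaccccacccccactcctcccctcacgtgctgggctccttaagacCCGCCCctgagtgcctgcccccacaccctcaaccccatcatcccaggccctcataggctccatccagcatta
Tet3 chr6:83441629-83441928, minus strand: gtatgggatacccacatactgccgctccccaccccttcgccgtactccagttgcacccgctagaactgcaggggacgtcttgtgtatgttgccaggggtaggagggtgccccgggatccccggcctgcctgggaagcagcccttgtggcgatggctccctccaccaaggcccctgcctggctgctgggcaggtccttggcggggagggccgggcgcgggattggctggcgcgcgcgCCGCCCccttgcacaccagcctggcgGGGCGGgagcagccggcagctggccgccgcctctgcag

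The promoters of the pair differed in base composition. That of Dnmt3b held 30 CpG sites (percentile 88.3 of all promoters, whose median is 7) and 4 matches to GGGCGG, a motif present in 35.7% of the 32851 promoters searched. The first and second starts of Dnmt3l had 6 and 4 CpG sites with 1 and 2 matches, and its last start (chr10:78055085-78055384) had 3 CpG sites and no match. Tet3 had 22 CpG sites, 2 matches to GGGCGG and 1 to CCAAT, which 37.4% of promoters hold. The letters CACGTG (7.15% of promoters) occurred once, at the second Dnmt3l start, and TTCCCGC (4.6%) in none of the printed windows. Both strands were searched, and a match describes the sequence alone.

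Tet1, the most abundant TET transcript per length in 7 of the 10 libraries (chr10:62804570-62908996, minus strand), was at 435 and 248.5 CPM in Daxx-/-, 525 and 469.7 in DAXX-rescued, 429.9 and 329 in H3.3 KO, 516 and 443 in WT H3.3-rescued, and 478 and 428 in mutant H3.3-rescued mESCs. Each KO line spanned a wide range below its rescued lines, with mutant H3.3 overlapping H3.3 KO. The log2 difference between DAXX-rescued and Daxx-/- mESCs was 0.54 ± 0.25 (edgeR adjusted p = 0.241). Without Daxx-/- replicate 1, the higher of its pair, it became 1.00 and was called (edgeR adjusted p = 0.0248), while without replicate 2 it shrank to 0.19 (edgeR adjusted p = 0.677).

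Tet2, a second TET dioxygenase (chr3:133463679-133545139, minus strand), was at 140.3 and 81.5 CPM in Daxx-/-, 209 and 181 in DAXX-rescued, 184 and 285 in H3.3 KO, 341 and 306 in WT H3.3-rescued, and 194 and 246 in mutant H3.3-rescued mESCs. Daxx-/- held the lowest pair and WT H3.3-rescued mESCs the highest, each apart from all other libraries. Between families Tet2 rose by 0.80 ± 0.18 on the log2 scale in H3.3 lines (1.74-fold, edgeR adjusted p = 0.00852), with overlapping libraries, and without Daxx-/- replicate 1 this difference reached 1.01, past the 2-fold threshold (edgeR adjusted p = 0.00189). The DAXX-rescued line exceeded Daxx-/- by 0.81 ± 0.28 (edgeR adjusted p = 0.148). Without Daxx-/- replicate 1 this was 1.26 and called (edgeR adjusted p = 0.029), and without replicate 2 it was 0.47 (edgeR adjusted p = 0.428). The mutant had a log2 difference of -0.56 ± 0.28 from WT H3.3-rescued mESCs (edgeR adjusted p = 0.48), with both of its libraries below. Tet2 shares 43 exon bases with Gm42567 on the opposite strand, which was not analysed here.

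Tet3, the TET enzyme best known from the zygote (chr6:83362373-83459084, minus strand), was at 12.6 and 9.26 CPM in Daxx-/-, 14.6 and 15.8 in DAXX-rescued, 5.83 and 12.85 in H3.3 KO, 13.9 and 19.85 in WT H3.3-rescued, and 4.39 and 4.38 in mutant H3.3-rescued mESCs. The mutant line had the lowest pair in the series, and its libraries lay close to each other. Its log2 difference from WT H3.3-rescued mESCs, -1.95 ± 0.38 (3.85-fold lower), had the smallest adjusted p of any gene of the 9 in the rescue comparisons (edgeR adjusted p = 0.0746). DESeq2 called it (adjusted p = 2.5e-04), as did edgeR with no filter on low counts (adjusted p = 0.0406). With single libraries left out the value was between -2.18 and -1.67 and was never called. The mutant differed from H3.3 KO by -1.09 ± 0.38 (edgeR adjusted p = 0.196), and WT H3.3-rescued from H3.3 KO mESCs by 0.86 ± 0.37 (edgeR adjusted p = 0.355), on the log2 scale. These leaned on H3.3 KO, at -1.55 and 0.39 without its replicate 1 and -0.41 and 1.53 without its replicate 2. Between families the log2 difference was -0.54 ± 0.23 (edgeR adjusted p = 0.0939), which became -0.76 and was called without H3.3 KO replicate 2 (edgeR adjusted p = 0.0189).

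The make-up of the TET pool differed between libraries. Per exon length, Tet1 made up 64.9% and 64.2% of the TET transcripts in Daxx-/- and 60.4% and 60.9% in DAXX-rescued mESCs. It made up 59.4% and 41.6% in H3.3 KO, 48.4% and 46.9% in WT H3.3-rescued, and 60.8% and 52.3% in mutant H3.3-rescued mESCs. Tet3 held between 0.656% and 2.93% and was lowest in the mutant line and in H3.3 KO replicate 1, so Tet2 filled most of the remainder.

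Tdg, the glycosylase that removes oxidized methylcytosine (chr10:82629828-82650799, plus strand), was among the steadiest genes, at 121 and 92.75 CPM in Daxx-/-, 129 and 125 in DAXX-rescued, 140.4 and 129 in H3.3 KO, 125 and 108 in WT H3.3-rescued, and 143 and 121 in mutant H3.3-rescued mESCs. Its libraries lay higher in DAXX-rescued than in Daxx-/- and lower in WT H3.3-rescued than in H3.3 KO mESCs. The log2 differences were 0.24 ± 0.17 (0.06 to 0.45 with single libraries left out) and -0.21 ± 0.17 (-0.32 to -0.10), and the difference between them was -0.45 ± 0.23 (edgeR adjusted p = 0.425). Tdg shares 367 exon bases with Glt8d2 on the opposite strand, which was at most at 0.51 CPM.

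Restoring DAXX to Daxx-/- mESCs asks which transcripts respond to the chaperone. None of the 9 genes was differentially expressed (DE, adjusted p under 0.05 and at least 2-fold, edgeR's quasi-likelihood test with Benjamini-Hochberg adjustment), 0 of 9 beside 1.08% of all genes tested, and 0 had an adjusted p under 0.05 at any fold, beside 1.41%. At an unadjusted p under 0.05 there were 2, Dnmt3l and Tet2, both higher with DAXX (21.8% of all genes), and DESeq2 called 1, Dnmt3l, among 531 genes of the table. Libraries of the lines did not overlap for 6 of 9, beside 46.4% of all genes. These were Dnmt3l, Tet1, Tet2, Tet3 and Tdg, which were higher, and Dnmt3a, which was lower. Of these, Tet1, Tet2 and Tdg had their lowest value of the series in Daxx-/- replicate 2. Among the cell type markers described below, that library also had the highest primitive endoderm sum and the lowest naive sum. Whether these go together was not tested. Without Daxx-/- replicate 1, 1 gene was DE, namely Tet2, and Tet1 was called at just under 2-fold, in a fit that had 1074 DE genes over the table where 143 were DE with all libraries. The median log2 difference of the 9 was 0.47, beside -0.02 for all genes tested.

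WT H3.3 in H3.3 KO mESCs asks the same of the histone. Here 0 of 9 genes were DE and 0 had an adjusted p under 0.05 at any fold by edgeR (0.250% of all genes for both rules, 33 genes). DESeq2 called 0 as well. An unadjusted p under 0.05 was reached by 3, Tet3 with a higher value, and Dnmt3a and Uhrf1 with lower values (13.3% of all genes). Libraries did not overlap for 7 of 9, beside 56.0% of all genes, with Tet1, Tet2 and Tet3 higher and Dnmt3a, Dnmt3b, Uhrf1 and Tdg lower. All 3 TET genes thus had higher values with either WT transgene, although none passed the test, and the median over the 9 was -0.05, beside 0.02 for all genes. None of the 9 interaction tests between the DAXX and WT H3.3 effects passed (edgeR, 0.0455% of all genes did), and none had an unadjusted p under 0.05 or was called by DESeq2.

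Mutant H3.3 was set against H3.3 KO and then directly against WT H3.3. Against H3.3 KO, 0 of 9 were DE (0.788% of all genes) and 0 passed at any fold (0.962%) by edgeR, while DESeq2 called 1, Dnmt3b, among 444 genes of the table. The count of 0 became 1, Dnmt3b, without mutant replicate 2, with 142 DE genes over the table in place of 104. At an unadjusted p under 0.05 there were 4 (16.9% of all genes), with Dnmt3b, Dnmt3l and Dnmt1 higher and Tet3 lower. Libraries did not overlap for 5 of 9, these 4 and Uhrf1, which was higher, beside 50.1% of all genes. The median log2 difference of the 9 was 0.12, beside 0.03 for all genes tested. The comparison shares its H3.3 KO libraries with that of WT H3.3.

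Against WT H3.3, 0 of 9 were DE (0.515% of all genes) and 0 passed at any fold (0.530%) by edgeR. DESeq2 called 2 as DE, Dnmt3b and Tet3, among 323 genes of the table, and without mutant replicate 2 edgeR called 1, Dnmt3b, among 64 where 68 were DE with all libraries. At an unadjusted p under 0.05 there were 5, beside 12.3% of all genes, with Dnmt3b, Uhrf1, Dnmt1 and Dnmt3l higher and Tet3 lower in the mutant line. Libraries did not overlap for 7 of 9, beside 45.3% of all genes: Dnmt1, Uhrf1, Dnmt3a, Dnmt3b and Dnmt3l were higher, Tet2 and Tet3 lower. The median over the 9 was 0.36, beside 0.003 for all genes. The plot of log2 fold changes places the 4 comparisons side by side.

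**Figure D3:**
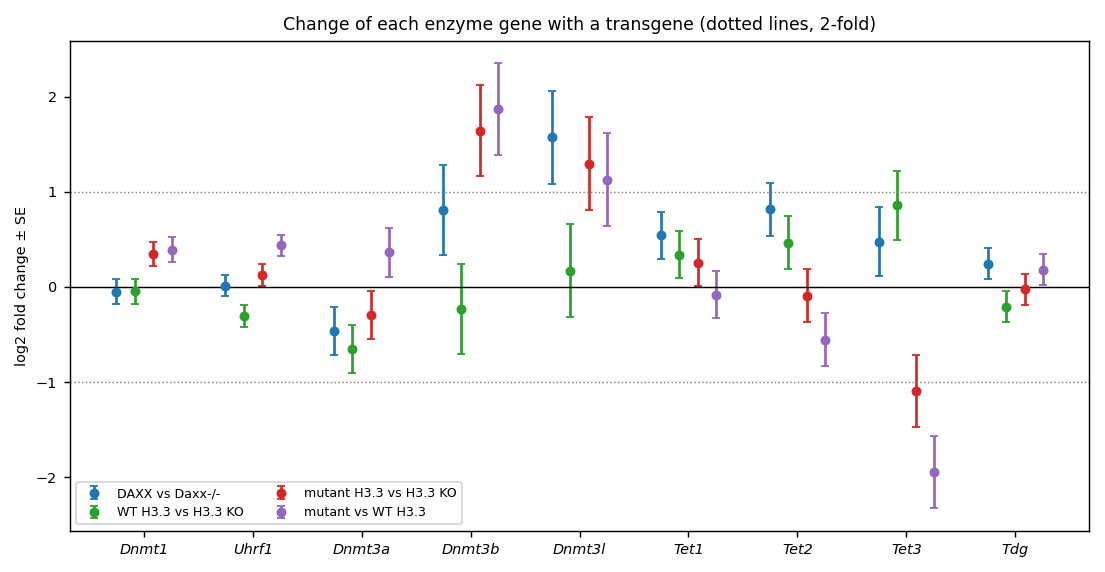
Log2 fold change ± SE of each gene in the 4 rescue comparisons (edgeR, 10 libraries in one fit, 2 per line), with dotted lines at 2-fold. Dnmt3b and Dnmt3l lie highest and Tet3 lowest in the comparisons of the mutant, and none of the points passed an adjusted p of 0.05.

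Across families, H3.3 lines against Daxx lines, 0 of 9 genes were DE, beside 12.5% of all genes, and DESeq2 called 0 as DE. Dnmt1 and Tet2, 2 of 9, passed at any fold, beside 39.9% of all genes, which is no larger a share than the background. An unadjusted p under 0.05 was reached by 4 (49.5% of all genes), with Dnmt1 and Tet2 higher and Uhrf1 and Tet3 lower in H3.3 lines. Libraries did not overlap for 1, Dnmt1, beside 22.8% of all genes. Uhrf1 had a log2 difference of -0.19 ± 0.07 (edgeR adjusted p = 0.0638), which DESeq2 called (adjusted p = 0.0235) and so did edgeR over genes with a mean of at least 5 CPM (adjusted p = 0.0399). Without Daxx-/- replicate 1 Tet2 was DE, at a log2 difference of 1.01.

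The largest differences leaned on single libraries to unlike degrees, which the plot of left-out fits shows for Dnmt3l, Dnmt3b and Tet3. For Dnmt3b, replicate 1 of the mutant line moved the log2 difference from H3.3 KO between 0.71 without it and 1.64 with it. For Tet3 in mutant against WT H3.3-rescued mESCs, every fit kept the log2 difference between -2.18 and -1.67.

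**Figure D4:**
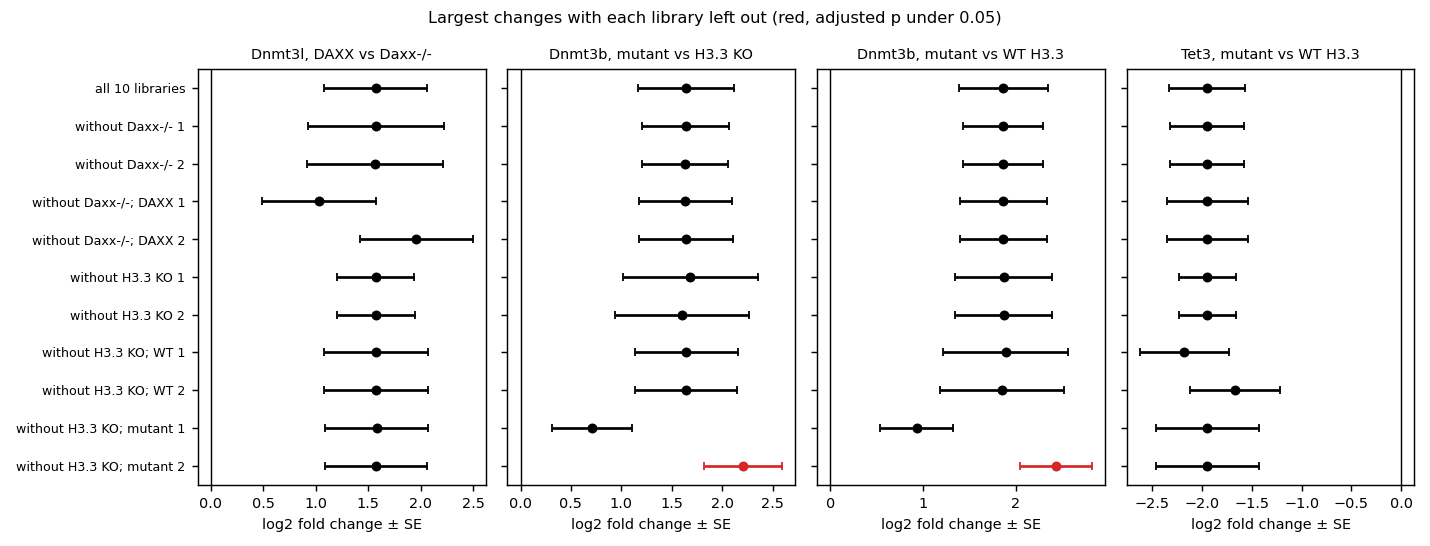
Log2 fold change ± SE of the named gene and comparison (x axis) with all 10 libraries and with each library left out in turn (y axis), red where the adjusted p is under 0.05. Dnmt3b passed only without mutant replicate 2, and Dnmt3l and Tet3 in none of these fits.

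The genes with the most similar profiles over the 10 libraries, among 10352 with a mean of at least 5 CPM, were listed by Pearson correlation of log2(CPM + 1). These correlations describe libraries that share lines, and the highest of so many are large by selection. Dnmt1 was followed by Tmem47, Ubr7 and Mnat1 (r between 0.939 and 0.943), and Uhrf1 by Mtss1, Tmem64 and Crbn (0.926 to 0.944). For de novo genes these were Lgals9, Cdc45 and Gpr89 with Dnmt3a (0.821 to 0.847), Bcat2, Mrpl51 and Ddx58 with Dnmt3b (0.943 to 0.973), and Sh3pxd2a, Ctnnd1 and Spns1 with Dnmt3l (0.921 to 0.931). Tet1 was matched by Traf6, Ubr1 and Psma1 (0.954 to 0.971), Tet2 by Mrps2, Pias2 and Mesdc1 (0.958 to 0.968), and Tet3 by Efhc2, Zfp772 and Rpl10l (0.908 to 0.927). Rnf168, Ccdc14 and Zbtb2 came closest to Tdg (0.947 to 0.961).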

How the data were processed

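Transcript levels were measured by unstranded polyA RNA-Seq in 10 mESC libraries, 2 per line, grouped by the line in their labels. The authors aligned reads to mm9 with Bowtie and quantified genes with RSEM (versions not given in the sources used here). Values deposited under the name TPM were read as RSEM expected counts, which is inferred from their unequal sums and whole values. Between 61.4% and 67.6% of a library's values were whole (equal to the nearest integer), and they were rounded to whole numbers here.

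A gene entered the test on reaching 1 CPM in any 2 libraries, using edgeR 4.0.16 in R 4.3.3 (glmQLFit and glmQLFTest on RLE factors, all 10 libraries in one fit, Benjamini-Hochberg adjustment). Alternatives used limma 3.58.1 and DESeq2 1.42.0, TMM factors or library size alone, other filters, a replicate block and left-out libraries. Scripts were tested on simulated data for the DAXX comparison. Of 55 simulated 2-fold changes 15 were called DE, and 19 had an adjusted p under 0.05. Of 73 simulated 4-fold changes 66 were called DE. A count of 0 DE genes thus leaves room for changes near 2-fold. Positions and exon lengths are from GENCODE vM21 (GRCm38), not from the authors' annotation. CPM in the text is scaled by the RLE factors.

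The 9 genes and the lists were chosen with earlier results of these data known. Named are the 9, listed genes with an adjusted p under 0.05, the most abundant gene of each list, Prdm14, Dppa3, Hells and Uhrf2, and the 3 most similar genes per member. A floor of 3 counts per library covers counting error only. Set tests were left out. 1 listed gene is not reported here.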

Additional observations from a re-analysis of the deposited data

How the results depend on the processing

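Of the results for the 9 genes, 784 kept their side of the threshold over the alternatives and 17 passed it that had not, while no call was lost or reversed. Uncalled values took the other sign in 4 of 351 alternatives and 18 of 450 fits with a library left out. Dnmt1 and Tet2 between families passed in all 7 alternatives and all 10 fits that left out 1 library. The number of DE genes among the 9 was 0 in each comparison. With DAXX it was 1 in DESeq2 and 0 to 1 with single libraries left out. For mutant H3.3 against H3.3 KO it was 1 in DESeq2 and 0 to 1 with libraries left out. Against WT H3.3 it was 1 with no filter, 2 in DESeq2 and 0 to 1 with libraries left out. Between families it was 2 without the fold threshold and 0 to 1 with libraries left out. With WT H3.3, and for the interaction, it was 0 throughout. The interaction and library-overlap alternatives, and those of other listed genes, were chosen after seeing the data. With library size alone, non-overlapping genes numbered 8 in place of 6 with DAXX and 9 in place of 7 for mutant against WT H3.3. The causes of these shifts were not tested.

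Counts of DE genes over the whole table moved more. With DAXX, 143 became 233 with no filter, 531 in DESeq2, 1 with the comparison fitted alone, and 1 to 1074 with libraries left out. With WT H3.3, 33 became 53, 209 and 330 in these settings, 60 in limma, and 2 to 61 with libraries left out. For mutant H3.3 against H3.3 KO, 104 became 203, 444 and 29, and 2 to 231. Against WT H3.3, 68 became 125, 323 and 18, 39 by library size, 38 above a mean of 5 CPM, and 0 to 102. Library size also moved the higher share of these calls from 48.5% to 59%. Between families, 1649 became 890 above a mean of 5 CPM, 1084 in limma and 5271 at any fold. A line left with 1 library is assumed to vary like the others.

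No source pairs the same-numbered replicates, so it is not known whether they share more than a number. Differences between replicates correlated at 0.566 for the Daxx lines and at 0.282, 0.07 and 0.423 among the H3.3 lines. Across families they correlated at 0.574 and 0.548 with the mutant, 0.387 and 0.27 with WT H3.3, and -0.044 and -0.01 with H3.3 KO. Most pairs of lines thus moved together to some degree, but not every pair did. With the replicate block, DE genes among the 9 numbered 0 with DAXX, 1 (Dnmt3b) for mutant H3.3 against H3.3 KO, and 2 (Dnmt3b and Tet3) against WT H3.3. Uhrf1 passed between families (edgeR adjusted p = 0.0312). Over all genes, the replicate block gave 621, 105, 461 and 234 DE genes in the rescue comparisons.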

Other observations

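Other genes of the methylation pathway seldom passed the test in the rescue comparisons. Of 17 listed partners and regulators of maintenance, 16 were tested, and 1 was DE with DAXX by edgeR (1.08% of all genes) and by DESeq2 (531 genes), with a lower level, while 2 had an unadjusted p under 0.05, beside 21.8% of all genes. In each of the other 3 rescue comparisons 0 of 16 were DE by edgeR or DESeq2, and 2 had an unadjusted p under 0.05, beside 13.3%, 16.9% and 12.3% of all genes. The DE gene was Dppa3, which keeps UHRF1 off chromatin, at 61.1 and 155 CPM in Daxx-/- and 6.79 and 11.2 CPM in DAXX-rescued mESCs. It had 40.5 and 50.1 CPM in H3.3 KO, 29.8 and 33.2 in WT H3.3-rescued and 18.5 and 41.0 CPM in mutant H3.3-rescued mESCs, so the DAXX-rescued pair was the lowest of the series. The log2 change was -3.60 ± 0.52 (edgeR adjusted p = 0.0244). The call was lost without DAXX-rescued replicate 1 or 2 (adjusted p = 0.256 and 0.0813, edgeR), without WT H3.3-rescued replicate 1 or 2 (0.0626 and 0.0618), and with the comparison fitted alone (0.131). Log2 changes lay from -4.12 to -2.78 over all left-out fits. Reads shared with the pseudogene Dppa3-ps cannot be told apart.

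Other partners of interest moved less. Hells, a remodeler needed for methylation, was at 257 to 359 CPM, and Prdm14, a repressor of de novo enzymes, at 49.4 to 81.7 CPM. Uhrf2, the paralog of Uhrf1, was at 38.3 and 38.2 CPM in H3.3 KO, 56.2 and 54.4 in WT H3.3-rescued, and 34.6 and 41.5 CPM in mutant H3.3-rescued mESCs. Its WT H3.3-rescued pair was the highest of the H3.3 family, where that of Uhrf1 was the lowest. For Uhrf2 the log2 differences were 0.53 ± 0.14 for WT H3.3 against H3.3 KO (edgeR adjusted p = 0.187) and -0.54 ± 0.14 for mutant against WT H3.3 (edgeR adjusted p = 0.15), and neither passed.

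Genes whose promoters are known to carry DNA methylation outside the germline had mostly lower values in rescued lines. In mutant H3.3-rescued against H3.3 KO mESCs, 3 of 10 were DE by edgeR, all lower, beside 0.788% of all genes. DESeq2 called 8 of 10, all lower, among 444 genes of the table. Libraries did not overlap for 10 of 10, beside 50.1% of all genes. The median log2 difference was -2.42, also with Asz1 at its bound, beside 0.03 for all genes tested. Medians were -1.20 with the DAXX transgene, -1.29 with the WT histone, and -1.27 for mutant against WT H3.3 (-1.20 with Asz1 at its bound). By edgeR 0 of 10 were DE in each of these, while 4, 5 and 5 had an unadjusted p under 0.05 (21.8%, 13.3% and 12.3% of all genes). DESeq2 called 3, 0 and 2 of the 10, among 531, 209 and 323 genes of the table. Summed CPM of the 10 was 491.5 and 426 in Daxx-/-, 328 and 282 in DAXX-rescued, 431 and 542 in H3.3 KO, 229 and 245 in WT H3.3-rescued, and 67.3 and 139 in mutant H3.3-rescued mESCs, with Tex19.1 the most abundant gene. Mean levels of Dnmt3b and Dnmt3l were highest in the mutant and DAXX-rescued lines, and whether the germline genes follow them was not tested.

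The DE genes of this list were Dazl, Hormad1 and Asz1, which act in germ cells. Dazl was at 95.2 and 245 CPM in H3.3 KO, 36.9 and 77.7 in WT H3.3-rescued, and 6.00 and 16.2 CPM in mutant H3.3-rescued mESCs, below both other lines. Its log2 change from H3.3 KO was -3.92 ± 0.60 (edgeR adjusted p = 0.0325). The adjusted p reached 0.176 without H3.3 KO replicate 2 and 0.224 without mutant replicate 1. It was 0.0532 and 0.0536 without either DAXX-rescued library and 0.0508 and 0.0515 without either WT H3.3-rescued library. Hormad1 had a log2 change of -2.24 ± 0.41 (edgeR adjusted p = 0.0456). Asz1 had 20 and 33 counts in H3.3 KO and 0 in both mutant libraries, at least 8.68-fold lower against a floor of 3 counts per library (edgeR adjusted p = 0.0385). Hormad1 and Asz1 were still called in 2 of 10 left-out fits, those without a Daxx-/- library, and in the other 8 their adjusted p reached 0.28 and 0.237. With the comparison fitted alone the edgeR call was lost for Dazl (adjusted p = 0.0523), Hormad1 (0.0963) and Asz1 (0.0821). In limma it was lost for Hormad1 (adjusted p = 0.0565) and Asz1 (0.0776), and for Hormad1 also by library size and above a mean of 5 CPM (edgeR adjusted p = 0.0553 and 0.0514).

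In the remaining lists (readers of methyl-CpG, excision repair, Gadd45 and deaminases, methyl donor enzymes, S phase) 0 genes were DE in the rescue comparisons by edgeR. DESeq2 called 1 of the Gadd45 and deaminase genes lower with DAXX, 1 lower with WT H3.3, and no other gene of these lists, and at an unadjusted p under 0.05 each list held between 0 and 3 genes per comparison. With DAXX these were 3 of 6 Gadd45 and deaminase genes, all lower (median log2 difference -0.93), and 3 of 9 readers, all higher, beside 21.8% of all genes, and the shares of all genes were 13.3%, 16.9% and 12.3% in the other comparisons. Their most abundant genes were Mbd3 (83.7 CPM), Parp1 (1009), Apobec3 (99.5), Ahcy (604) and Mcm3 (565 CPM), and Trim28 (1549 CPM) led the maintenance list. Summed CPM of the S phase genes, of interest since Dnmt1 and Uhrf1 act at replication, was 4596 and 3614 in Daxx-/-, 3848 and 3606 in DAXX-rescued, 3205 and 2846 in H3.3 KO, 2994 and 2743 in WT H3.3-rescued, and 3832 and 3186 in mutant H3.3-rescued mESCs. As for Uhrf1, the mean of this sum was lowest in WT H3.3-rescued mESCs, though here libraries overlapped those of H3.3 KO. Dnmt1 did not share this order. Its means were lowest in Daxx-/- and DAXX-rescued mESCs (313 and 302 CPM), and the highest sum was in a Daxx-/- library. All 10 S phase genes had higher values with mutant than with WT H3.3 (50.4% of all genes), 8 of them without overlap (45.3% of all genes), but only 1 had an unadjusted p under 0.05 (12.3% of all genes). The part of S phase in the Uhrf1 and Dnmt1 levels was not tested.

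Between families 23 of the 72 genes of these lists had an adjusted p under 0.05 (31.9%, edgeR), a share below the 39.9% of all genes tested. Higher in H3.3 lines at an adjusted p under 0.05 (edgeR) were the reader Mbd2 (log2 change 1.38), the repair nuclease Apex1 (1.81), the one-carbon enzymes Shmt2 (0.82) and Mthfd1 (0.51), the isocitrate dehydrogenase Idh2 (0.63), and the S phase genes Gins1 (0.67) and Rrm2 (0.59). Lower were Cdca7 (-0.67), Trim28 (-0.52), Cdca7l (-0.46), Uhrf2 (-0.28), Ung (-0.77), Smug1 (-0.47), Parp1 (-0.30), Gadd45g (-3.73), Mcm2 (-0.77), Mcm5 (-0.71), Mcm3 (-0.66), Mcm6 (-0.39), Hormad1 (-3.05), Tex19.1 (-1.15), Sycp1 (-1.02) and Asz1. The calls for Uhrf2 (2 of 10), Trim28 (3), Cdca7l, Smug1 and Idh2 (5 each) and Parp1 (9) held in only so many fits that left out 1 library. Where a call was lost, the edgeR adjusted p reached 0.111 for Uhrf2, 0.104 for Trim28, 0.106 for Cdca7l, 0.0745 for Smug1, 0.109 for Idh2 and 0.0543 for Parp1 (without DAXX-rescued replicate 1). By library size and in limma the calls were also lost for Uhrf2 (edgeR and limma adjusted p = 0.118 and 0.121), Cdca7l (0.063 and 0.0622) and Smug1 (0.0595 and 0.0643), and for Uhrf2 with no filter (edgeR adjusted p = 0.0625). The rest held in all 10 left-out fits. Gadd45g was uneven, at 44.2 CPM in Daxx-/- replicate 2 and at most 8.30 CPM in any other library, and without that library its log2 change was -2.13.

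Markers matched the labelled cell type. Naive markers were high in all libraries, with 7 of 8 in the table, summed CPM from 3234 to 5234 and Pou5f1 the most abundant (928 to 1311 CPM). Formative markers, which go with de novo methyltransferases in the embryo, summed to 53.2 and 39.1 CPM in Daxx-/-, 51.4 and 53.3 in DAXX-rescued, 58.8 and 78.4 in H3.3 KO, 39.4 and 43.0 in WT H3.3-rescued, and 71.0 and 47.0 CPM in mutant H3.3-rescued mESCs. Zic2 led this list, and Fgf5 was at most at 1.42 CPM, in mutant replicate 1. The formative sum was highest in H3.3 KO replicate 2, where Dnmt3b was at 58.8 CPM. Primitive endoderm (at most 22.5 CPM summed, led by Gata4), mesendoderm (26.9, Eomes) and neural markers (11.4, Sox1) were low. Fibroblast markers summed to at most 40.9 CPM, most of it Thy1, with Col1a1 at up to 4.43 CPM and Col3a1, Twist2 and Postn near 0. The next highest fibroblast sum, 27.55 CPM, was in Daxx-/- replicate 1. Both maxima, of primitive endoderm (at most 13.6 CPM in any other library) and of fibroblast markers, were in Daxx-/- replicate 2. That library also had the lowest naive sum and the lowest Dnmt3b, Tet1, Tet2 and Tdg of the series. Whether these go together was not tested. None of the marker genes in the table was at 0 in every library. Two-cell-like markers summed to 48.5 and 14.4 CPM in Daxx-/-, 66.9 and 9.65 in DAXX-rescued, 134 and 177 in H3.3 KO, 121 and 171 in WT H3.3-rescued, and 2.48 and 32.5 CPM in mutant H3.3-rescued mESCs, led by Zscan4f. They were lowest in mutant replicate 1, and the part of these cells in any change above was not tested.

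In the rescue comparisons 0 marker genes were DE by edgeR. At an unadjusted p under 0.05, all 4 two-cell-like genes were lower with mutant H3.3 than in H3.3 KO (median log2 difference -3.15) and than with WT H3.3 (-3.01), beside 16.9% and 12.3% of all genes, and DESeq2 called 1 and 0 of them. Other marker lists held 0 to 2 such genes per comparison. With DAXX these were 2 of 5 primitive endoderm, 2 of 6 formative and 2 of 2 fibroblast genes, all lower, beside 21.8% of all genes. The median log2 differences of these lists were -1.45, -0.42 and -1.805, beside -0.02 for all genes. Naive markers held 1 higher and 1 lower. DESeq2 called 1 formative and 1 fibroblast gene lower with DAXX. It also called 1 mesendoderm gene higher with mutant H3.3 against each other H3.3 line. Between families, edgeR gave an adjusted p under 0.05 for 12 of 29 markers (41.4%, beside 39.9% of all genes), with higher Klf4 (log2 change 1.17), Sox2 (0.78), Esrrb (0.38), Nanog (0.36), Fst (1.23), Zic2 (0.88), Gsc (1.07) and Sox1 (1.19), and lower Otx2 (-3.42), Thy1 (-1.74), Pdgfra (-1.49) and Eomes (-0.90) in H3.3 lines. With 1 library left out these held in 9 of 10 fits for Nanog (edgeR adjusted p up to 0.0739), 7 for Pdgfra (0.0669) and Gsc (0.0722), 5 for Sox1 (0.115), 2 for Zic2 (0.146), and all 10 for the rest.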
